A study of Mus musculus with 46 samples.

Results

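The mouse testis after 1 month of drinking water with 10 µg/ml acrylamide was compared with the testis after 1 month at 1 µg/ml, the next lower concentration given. The members were the 3 arrays titled with the higher dose and the 3 titled with the lower dose at that time, 6 of the 46 arrays of the series. All animals were adult male Swiss mice, and those at 1 month were aged 3 to 6 months by the labels. Both groups drank research-grade acrylamide in filtered, deionised water, so that neither was untreated. The other arrays held the same doses at 6 months (3 and 3 arrays) and 12 months (1 and 1), lower doses, and controls. By the labels the animals of the 6 month arrays were aged 11 to 12 months and those of the 12 month arrays 16 to 17 months. Time of exposure and age therefore go together. RNA came from individual testes, 1 array a sample, on Illumina bead arrays with 25697 probes. The labels do not say which samples came from separate animals, so the p-values measure the spread between these samples.

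Acrylamide is oxidised to the epoxide glycidamide, mainly by the cytochrome P450 enzyme CYP2E1. Glycidamide binds DNA, and both compounds are conjugated to glutathione by glutathione S-transferases. The testis holds germ cells at every stage from spermatogonia through spermatocytes to round and elongating spermatids, supported by Sertoli cells within the tubules and by testosterone-producing Leydig cells between them. In a whole testis, fewer cells of a type and less RNA per cell cannot be told apart.

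The labels give sample numbers and no slide, so the arrays were cut here into runs of 8 consecutive numbers. Whether these runs match slides is not known. Of the 6 arrays, 5 lie in 1 such run, called set 2 here. Replicate 3 of 10 µg/ml is the first of the following 8, set 3. Its median bead intensity was 194.7, against 130.4 and 141.2 for replicates 1 and 2 of 10 µg/ml and 141.1, 156.7 and 142.4 for the 1 µg/ml arrays. Leaving this array out gives the value within set 2. One array outside the comparison, replicate 3 of 0.001 µg/ml at 1 month, stood apart from the rest, with a mean correlation with the other arrays of 0.844, against 0.974 or more for every other array. It enters the pooled spread of the test but no mean of the 2 doses.

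The testes of the 2 doses differed little in these readings. The root mean square difference between pairs of arrays over the 15419 probes tested was 0.158 to 0.162 log2 units within 10 µg/ml (mean 0.160) and 0.168 to 0.191 within 1 µg/ml (mean 0.176). Between the doses it was 0.162 to 0.204 (mean 0.191), so the ranges met: replicate 1 of 10 µg/ml lay as near to replicate 1 of 1 µg/ml, at 0.162, as to the other arrays of its own dose. Of all probes tested, 0 passed an adjusted p of 0.05 with limma (a percent called of 0), and the smallest adjusted p was 0.764. At an unadjusted p under 0.05 there were 839 (5.44%), of which 414 were higher (2.68%) and 425 lower (2.76%) at 10 µg/ml. That count depends on the pooled spread. Without the array that stood apart 0 probes passed, and 1645 had an unadjusted limma p under 0.05. Such probes numbered 1873 from the 6 arrays alone and 2349 with array weights. The counts at an adjusted p of 0.05 from other fits were 0 with cyclic loess, with a trend in the prior and with the log2 intensities, 32 with array weights and 1 from the 6 arrays alone. Fitted with the set as a term and without the array that stood apart, a choice made after seeing the data, 30 probes passed. Only 10 µg/ml links set 3 to set 2. The difference in that fit is therefore the one within set 2, without replicate 3 of 10 µg/ml. The 3 arrays of 10 µg/ml lay wholly above the 3 of 1 µg/ml for 1232 probes (7.99%) and wholly below for 1377 (8.93%), together 16.9%. Were the 6 arrays exchangeable, a fraction of 0.1 would be expected to separate in either direction, though probes are not independent.

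The test bounded most probes narrowly. The median standard error was 0.094 and the median half-width of the 95% interval was 0.19 on the log2 scale. That interval lay within 0.5 log2 units either side of 0 for 12601 probes (81.7%), and within 1 unit, a 2-fold change, for 15210 (98.6%). The deposited values compress dim probes: per log2 unit of intensity they rose by 0.586 between log2 intensities of 7 and 8 and by 0.991 between 11 and 12, so differences of dim probes are understated.

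**Figure D1:**
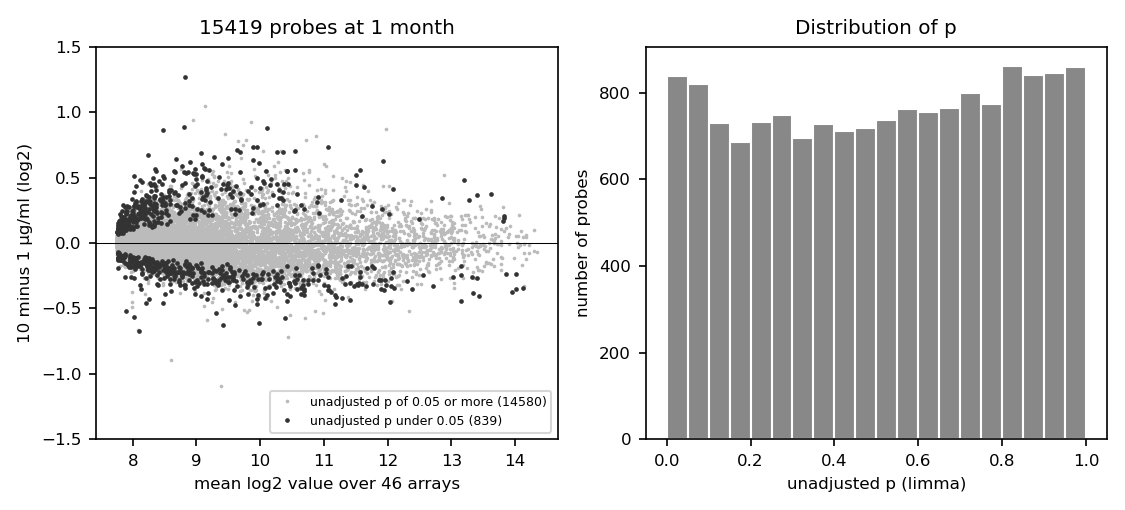
Left, the difference of 10 minus 1 µg/ml at 1 month (log2) of 15419 probes against their mean log2 value over 46 arrays, with the 839 probes at an unadjusted p under 0.05 in dark; right, the number of probes by unadjusted p from limma. Most differences lie near 0 at every level, and the bars stay close to level across p. The pooled spread of this fit includes the array that stood apart.

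Only 3 probes had a difference of 1 log2 unit or more, and each varied as widely within a dose. They were singled out after their values were seen. Mff, a receptor for mitochondrial fission, read 9.74, 9.47 and 9.74 in testes at 10 µg/ml, against 9.47, 7.83 and 7.83 at 1 µg/ml, a difference of 1.27 ± 0.61 (SE). Cbwd1 read 9.77, 7.76 and 10.50 at 10 µg/ml and 7.67, 9.54 and 7.69 at 1 µg/ml. Lrrc18 read 9.60, 9.80 and 7.64 at 10 µg/ml and 9.75, 10.15 and 10.42 at 1 µg/ml. These probes switched between a high and a low reading from testis to testis, and both groups held high readings. Enpp5, an ectonucleotide pyrophosphatase family member, did so too across the series but split cleanly here. Its readings were 9.13, 9.18 and 9.28 at 10 µg/ml and 8.26, 8.25 and 8.24 at 1 µg/ml, a difference of 0.94 ± 0.47 (SE) with limma's adjusted p at 0.911. The fit to the 6 arrays alone called this probe, at an adjusted p of 0.00795 with a standard error of 0.052. The control arrays at 1 month read 9.71, 8.25 and 8.91 for Enpp5, which covers both groups.

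Among named genes, 12 higher and 12 lower ones with the smallest p are given as values that did not pass. Limma's adjusted p was 0.764 for each, with unadjusted p from 0.000141 to 0.00186. The doses did not overlap for any of the 24, and since p chose them nothing is read from their separation. Differences ran from 0.15 to 0.87 for the higher genes and from -0.11 to -0.43 for the lower ones. Another tested probe was present for 12 of the 24 genes, and of these 19 probes 10 lay on the same side of 0 and 9 on the opposite side.

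Polb, DNA polymerase beta, which fills the gap in base excision repair, read 9.60, 9.84 and 9.98 in testes at 10 µg/ml, against 9.15, 9.11 and 9.34 at 1 µg/ml. The mean was higher at 10 µg/ml by 0.61 ± 0.15 (SE, 95% interval 0.29 to 0.92, 1.52-fold). Within set 2 the difference was 0.52. Mas1, the receptor for angiotensin-(1-7), which Leydig cells carry, read 9.42, 9.38 and 9.25 at 10 µg/ml and 9.03, 8.81 and 9.09 at 1 µg/ml, a difference of 0.37 ± 0.10 (SE). Ccl28, a chemokine of mucosal surfaces, had the widest difference of the higher genes, 0.87 ± 0.24 (SE). Its arrays were scattered at both doses: 8.98, 9.37 and 9.57 at 10 µg/ml and 8.55, 8.93 and 7.84 at 1 µg/ml. Rnf220, a ubiquitin ligase, read 9.02, 9.32 and 8.82 at 10 µg/ml and 8.61, 8.43 and 8.42 at 1 µg/ml. A second probe for Rnf220 differed by 0.22 ± 0.20 (SE).

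Several of the remaining higher genes were dim. Tm4sf4, a tetraspan membrane protein, read 8.06, 7.89 and 8.13 at 10 µg/ml and 7.79, 7.67 and 7.75 at 1 µg/ml, while its second probe differed by -0.01 ± 0.07 (SE). Jam3, a junctional adhesion molecule that round spermatids need for polarity, read 8.06, 8.10 and 8.17 at 10 µg/ml and 7.83, 7.91 and 7.76 at 1 µg/ml. Spa17, a sperm surface protein, differed by 0.18 ± 0.05 (SE). Ccdc27 (0.36), Zcchc8 (0.35), Sae1 (0.17), Brd8 (0.17) and Sec22a (0.15) were the others, as log2 differences. Brighter probes did not show the same for Sae1 (-0.32 ± 0.28 and -0.18 ± 0.11, SE), Sec22a (-0.05 ± 0.13) or Ccdc27 (0.05 ± 0.18 and 0.06 ± 0.11), while the other probes of Zcchc8 differed by 0.24 ± 0.14 and 0.12 ± 0.11 (SE).

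Lower at 10 µg/ml stood Ndufv1, the flavoprotein subunit of respiratory complex I that binds NADH. It read 12.19, 12.21 and 12.19 at 10 µg/ml, against 12.49, 12.73 and 12.42 at 1 µg/ml, a difference of -0.35 ± 0.10 (SE). The 10 µg/ml arrays lay together, and the spread came from the 1 µg/ml arrays. Smap2, a GTPase-activating protein for Arf that vesicle formation in the acrosome needs, read 9.83, 9.62 and 9.65 at 10 µg/ml and 10.03, 10.00 and 10.26 at 1 µg/ml. Eif2b5, a subunit of the exchange factor for the initiation factor eIF2, read 10.79, 10.84 and 10.87 at 10 µg/ml and 11.12, 11.21 and 11.25 at 1 µg/ml. The differences were -0.40 ± 0.11 for Smap2 and -0.36 ± 0.11 for Eif2b5 (SE). Parp12 had the widest difference of the lower genes, at -0.43 ± 0.12 (SE). The log2 differences of the others were -0.33 for Ahcyl1, -0.32 for Tmem9b, -0.29 each for Ssr2 and Sema4b, -0.27 for Hexdc, -0.17 for Prmt6, -0.12 for Duxbl1 and -0.11 for Plec. The other tested probes of Eif2b5 were at -0.25 ± 0.20 and -0.19 ± 0.09 (SE), and those of Plec, both brighter, at 0.05 ± 0.33 and 0.03 ± 0.10. For Smap2 they were at 0.07 and -0.05, for Tmem9b at -0.09 and 0.06, and for Hexdc at 0.03.

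**Figure D2:**
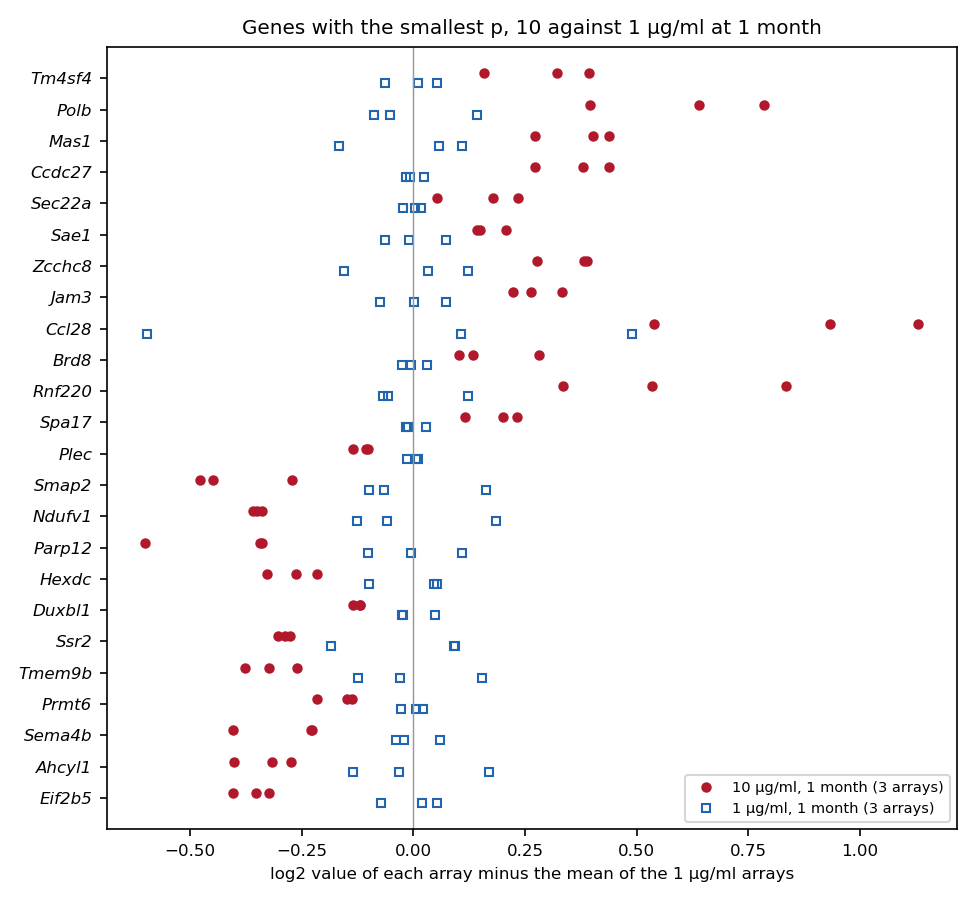
Log2 value of each array minus the mean of the 1 µg/ml arrays, for the 12 higher and 12 lower genes with the smallest p; filled circles are the 3 arrays at 10 µg/ml and open squares the 3 at 1 µg/ml, both at 1 month. The circles lie to 1 side of the squares in each row, most narrowly for Sec22a and Ccl28, as the choice by smallest p favours, and none of these genes passed the adjusted test.

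Median differences of germ cell genes between the doses were small, and spermatid genes lay mostly above 0 at 10 µg/ml. In 25 gene lists read by the brightest probe of each gene, 0 members passed the adjusted test in any list. Over all 10667 genes the median log2 difference was -0.011, 4734 (44.4%) were above 0 and 5933 (55.6%) below, and 815 (7.64%) lay wholly higher and 1022 (9.58%) wholly lower at 10 µg/ml. The counts of every list below are to be read against these shares. The median was 0.065 over 20 round spermatid genes, of which 16 were above 0, a larger share than among all genes, and 4 lay wholly higher. Whether the list as a whole departs from these shares was not tested. Over 19 elongating spermatid genes it was 0.057, with 12 above 0, 4 wholly higher and 1 wholly lower. The median was 0.01 over 13 spermatogonial genes and -0.03 over 18 spermatocyte genes. The mean log2 value of the round spermatid genes was 11.34, 11.34 and 11.40 on the 10 µg/ml arrays and 11.30, 11.17 and 11.21 on the 1 µg/ml arrays. That of the elongating spermatid genes was 12.68, 12.68 and 12.82 at 10 µg/ml and 12.65, 12.50 and 12.58 at 1 µg/ml. Neither list overlapped between the doses. The separation was small in both, and replicate 3 of 10 µg/ml, the array of set 3, was highest. Without that array the medians were 0.086 and 0.10 for the round and elongating spermatid lists.

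Crem, the transcription factor that switches on spermatid genes, read 9.49, 9.70 and 9.68 at 10 µg/ml and 9.38, 9.10 and 9.13 at 1 µg/ml. Its difference was 0.42 ± 0.14 (SE) with limma's adjusted p at 0.860, and its 4 other probes differed by -0.02 to 0.10. Fscn3, a testis actin-bundling protein, read 10.64, 10.71 and 11.23 at 10 µg/ml and 9.97, 10.38 and 10.13 at 1 µg/ml. Ropn1, a protein of the sperm fibrous sheath, read 11.68, 11.77 and 12.11 at 10 µg/ml and 10.97, 11.11 and 11.12 at 1 µg/ml, a difference of 0.78 ± 0.46 (SE). Prm1, a protamine that packs sperm DNA, went the other way, with 13.82, 13.69 and 13.65 at 10 µg/ml and 14.17, 14.05 and 14.00 at 1 µg/ml. Ldhc, the lactate dehydrogenase of spermatocytes and sperm, was also lower, at 14.03, 13.82 and 13.89 for 10 µg/ml and 14.27, 14.25 and 14.23 for 1 µg/ml. Its 2 other probes differed by -0.20 ± 0.12 and -0.02 ± 0.08 (SE), against -0.34 ± 0.11 for the brightest.

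Among genes named for the testis (Spata and Tex families), the median over 42 was 0.024, with 7 wholly higher and 4 wholly lower. Spata33 read 11.96, 12.02 and 12.36 at 10 µg/ml, against 11.78, 11.37 and 11.51 at 1 µg/ml, a difference of 0.56 ± 0.17 (SE). Spata7, a ciliary protein, read 7.69, 7.79 and 7.84 at 10 µg/ml and 8.77, 8.30 and 8.26 at 1 µg/ml, a difference of -0.67 ± 0.27 (SE). Its second probe differed by -0.57 ± 0.23 (SE), in the same direction. None of the 3 values passed the adjusted test.

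Sertoli and Leydig cell genes lay mostly below 0 at 10 µg/ml, in a larger share than the 55.6% of all genes. They were not alone in this. Below 0 were 7 of 8 peritubular myoid, 8 of 11 endothelial and 18 of 22 p53 and damage response genes. So were 13 of 17 cholesterol synthesis and 17 of 24 acrylamide and xenobiotic metabolism genes. Of the 25 lists, 17 had a median below 0 and 8 above. Of all genes 9.58% lay wholly lower. Whether a list as a whole departs from these shares was not tested. The median log2 difference was -0.12 over 23 Sertoli genes (18 below 0, 5 wholly lower) and -0.13 over 17 Leydig and steroidogenesis genes (15 below 0, 3 wholly lower). Over 11 endothelial genes it was -0.068, with 5 wholly lower. It was -0.051 over 8 peritubular myoid genes and -0.031 over 15 macrophage genes, of which 9 were below 0. The mean level of the Sertoli genes was 9.55, 9.58 and 9.59 on the 10 µg/ml arrays, against 9.64, 9.81 and 9.66 on the 1 µg/ml arrays. The groups did not overlap, and replicate 2 of 1 µg/ml stood highest. That of the Leydig genes was 9.01, 9.34 and 9.23 at 10 µg/ml and 9.18, 9.46 and 9.43 at 1 µg/ml, which overlapped. Within set 2 the medians were -0.096 for Sertoli and -0.097 for Leydig genes.

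Amhr2, the receptor for anti-Müllerian hormone, read 11.92, 11.85 and 11.92 at 10 µg/ml, against 12.11, 12.40 and 12.15 at 1 µg/ml. The difference was -0.33 ± 0.10 (SE) with limma's adjusted p at 0.764, and the 2 other probes differed by -0.37 ± 0.19 and -0.07 ± 0.30 (SE). Aard, a gene high in Sertoli cells, read 12.50, 12.54 and 12.62 at 10 µg/ml and 12.81, 12.89 and 12.94 at 1 µg/ml. Star, the cholesterol carrier that begins steroid synthesis, read 8.05, 8.17 and 8.08 at 10 µg/ml and 8.14, 8.35 and 8.44 at 1 µg/ml, and overlapped. Hsd17b3, which makes testosterone, read 9.25, 9.28 and 9.49 at 10 µg/ml and 9.33, 9.88 and 10.15 at 1 µg/ml, and overlapped too. Acta2, smooth muscle actin, differed by -0.47 ± 0.17 (SE), and by -0.28 within set 2, while its 3 other probes were at -0.29, -0.26 and -0.06. Nos3, the endothelial nitric oxide synthase, read 7.82, 7.79 and 8.00 at 10 µg/ml and 8.26, 8.30 and 8.11 at 1 µg/ml, a difference of -0.35, with its 2 other probes at -0.26 and -0.06. None of these genes passed the adjusted test.

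Markers of tissue outside the testis were few above the filter. Of the epididymal genes 3 of 10 on the array were tested, of the blood cell genes 3 of 7 and of the adipose genes 4 of 8. Adipoq, the fat hormone adiponectin, read 10.48, 10.18 and 10.08 at 10 µg/ml and 9.88, 9.91 and 9.77 at 1 µg/ml, while Lep, Retn and Lpl lay between 7.69 and 8.13 on all 6 arrays. Hba-a1, a haemoglobin chain, read 10.08, 9.56 and 9.68 at 10 µg/ml and 10.90, 10.66 and 9.90 at 1 µg/ml. The part of such tissue in the differences above was not tested.

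Genes that handle acrylamide or answer to damage did not pass the test either. Cyp2e1 was among the dim probes left out, and read 7.70, 7.67 and 7.74 at 10 µg/ml and 7.78, 7.93 and 7.78 at 1 µg/ml. Over 24 genes of acrylamide and xenobiotic metabolism the median was -0.028, with 0 wholly higher and 2 wholly lower. Gstm2, a glutathione S-transferase, read 13.12, 13.00 and 13.16 at 10 µg/ml, against 13.31, 13.64 and 13.56 at 1 µg/ml, a difference of -0.41 ± 0.14 (SE). Its 2 other probes were lower as well, by -0.44 ± 0.17 and -0.45 ± 0.18 (SE). Mgst1 and Gstm1, of the same enzyme activity, differed by -0.40 and -0.35 with overlapping groups, and their other tested probes by -0.12 ± 0.24 and -0.04 ± 0.06 (SE).

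The list of p53 targets and damage response genes had a median of -0.090 over 22 genes, of which 8 lay wholly lower and 0 wholly higher. Over all genes 9.58% lay wholly lower and 7.64% wholly higher. Gadd45a, a damage-induced growth arrest gene, read 7.81, 7.91 and 7.95 at 10 µg/ml and 8.00, 8.14 and 8.14 at 1 µg/ml. Sesn2, Plk2 and Bbc3 differed by -0.16, -0.12 and -0.09. All 4 are dim, with values near 8, and other tested probes lay closer to 0: -0.08 for Gadd45a, -0.01 for Sesn2, and -0.03 and -0.00 for Bbc3. Over 28 genes of excision repair the median was 0.012, with 6 wholly higher and 4 wholly lower. Besides Polb, Pcna, the sliding clamp of DNA polymerases, was higher, with 8.80, 8.72 and 8.55 at 10 µg/ml and 8.15, 8.30 and 8.50 at 1 µg/ml. Xpa and Nthl1, of nucleotide and base excision repair, differed by -0.29 and -0.17 with overlapping groups.

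Of the 28 genes for oxidative stress and NRF2 targets 1 lay wholly higher and 5 wholly lower (median -0.036). Srxn1, a sulfiredoxin, read 8.98, 9.64 and 9.62 at 10 µg/ml and 9.18, 8.59 and 8.76 at 1 µg/ml, a difference of 0.57. Its other probes were at 0.60 and -0.03. Sqstm1, an autophagy receptor, read 9.59, 9.59 and 9.58 at 10 µg/ml and 9.79, 9.90 and 9.88 at 1 µg/ml. Over 25 heat shock and unfolded protein genes the median was 0.031, with 6 wholly higher, among them the chaperonin Hspe1 (0.29) and the heat shock factor Hsf2 (0.40), and 4 wholly lower, among them Hspb6 (-0.27) and Xbp1 (-0.25).

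The lists of large gene complexes had medians close to that of all genes. Over 80 respiratory chain and ATP synthase genes the median was -0.006, with 13 wholly higher and 15 wholly lower. Besides Ndufv1, the complex I subunits Ndufa10 and Ndufb6 each differed by -0.33, and the subunit Ndufb2 by 0.32. A second, dimmer Ndufb6 probe went the opposite way, at 0.24 ± 0.11 (SE). The median was -0.031 over 71 mitochondrial ribosomal proteins, where Mrpl39 read 9.31, 9.90 and 9.36 at 10 µg/ml and 8.94, 8.95 and 9.05 at 1 µg/ml. It was -0.024 over 58 cytosolic ribosomal proteins. There Rpl22 differed by -0.19 ± 0.07 (SE) and its paralog Rpl22l1 by 0.28 ± 0.11 (SE), each without overlap. The proteasome and ubiquitin list (32 genes) had a median of -0.031, with Psmb4 at -0.28 and Psmd6 at 0.29. For 17 cholesterol synthesis genes it was -0.070 (1 wholly lower, Insig1), for 40 kinesins and dyneins 0.015, and for 16 immediate early genes -0.028, where Dusp1 differed by 0.23.

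**Figure D3:**
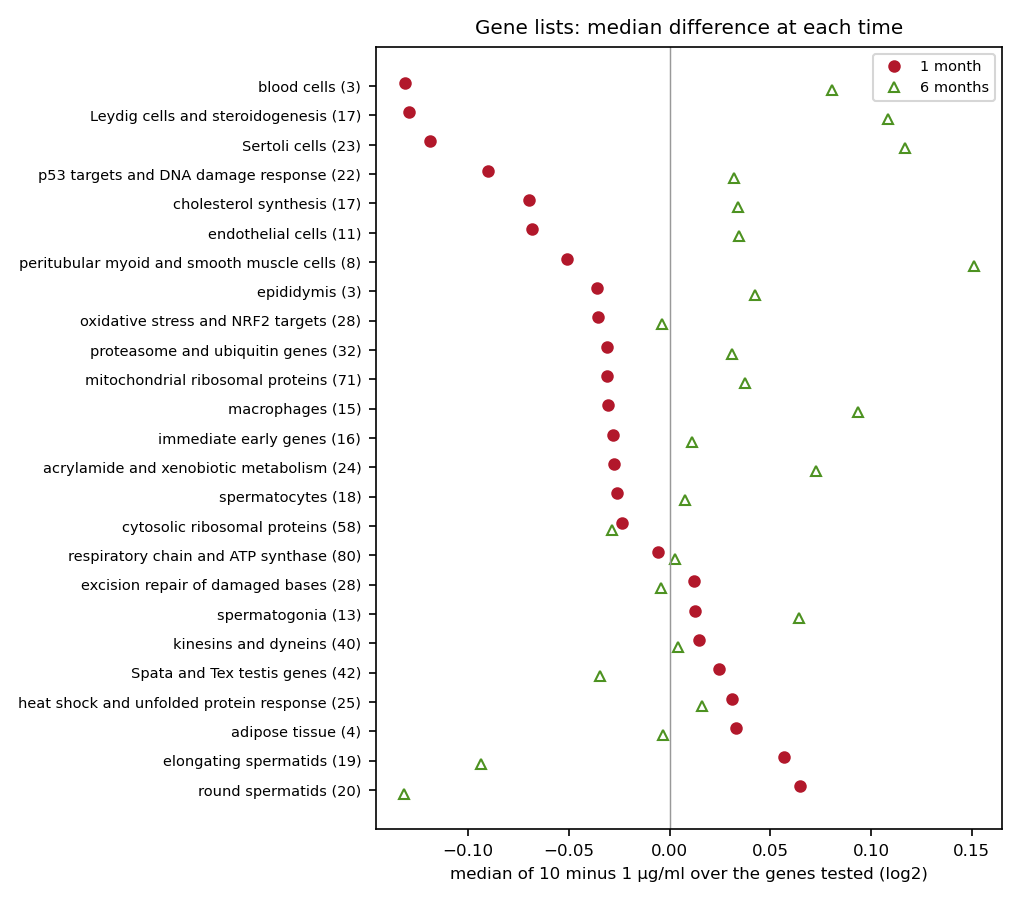
Median of 10 minus 1 µg/ml (log2) over the tested genes of each list, with the number of genes in parentheses; filled circles are 1 month and open triangles 6 months. Sertoli, Leydig and p53 lists lie left of 0 and spermatid lists right of 0 at 1 month, and these lists lie on the other side at 6 months.

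Set over the full dose series, some of these genes had means at 10 µg/ml near or nearer to those of the controls, and lower means at 1 µg/ml. Polb averaged 9.91 ± 0.10 in controls, 10.05 ± 0.16 at 0.001, 9.90 ± 0.18 at 0.01, 9.34 ± 0.04 at 0.1, 9.20 ± 0.12 at 1 and 9.81 ± 0.20 at 10 µg/ml (SD, n = 3, and 2 at 0.1 µg/ml). The arrays of controls, of 0.001 µg/ml and 2 of those at 0.01 µg/ml lie in set 1. All arrays at 0.1 and 1 µg/ml lie in set 2, so the step between lower and higher doses falls at a change of set. Spata33 averaged 12.11 ± 0.22 at 10 µg/ml, 11.55 ± 0.21 at 1 µg/ml and 12.15 ± 0.08 in controls (SD, n = 3 each). Mea1, a gene of male germ cells, averaged 11.04 ± 0.21 at 10 µg/ml, 10.63 ± 0.24 at 1 µg/ml and 11.77 ± 0.19 in controls (SD, n = 3 each), so that both doses lay below control. Spata21 averaged 10.59 ± 0.22 at 10 µg/ml, 10.04 ± 0.22 at 1 µg/ml and 11.20 ± 0.21 in controls.

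The comparisons of each dose with control share the control arrays. The control arrays lie in set 1 and those of the 2 doses in sets 2 and 3. Only the 0.01 µg/ml group links sets 1 and 2, with 2 arrays in set 1 and 1 in set 2. Only the 10 µg/ml group itself links sets 2 and 3. A fit with the set as a term therefore places both doses against control through that 1 array of 0.01 µg/ml in set 2. With limma 11 probes passed at 10 µg/ml against control (0.0713%; 7 higher and 4 lower) and 46 at 1 µg/ml against control (0.298%; 11 higher and 35 lower). With the set as a fixed term, a fit added after seeing the data, 0 passed in either comparison with limma, and 840 and 431 had an unadjusted p under 0.05. Polb was at -0.10 for 10 µg/ml and fell by 0.71 for 1 µg/ml (limma adjusted p = 0.038). Mea1 was at -0.74 for 10 µg/ml (adjusted p = 0.23 in limma) and -1.14 for 1 µg/ml (0.013), Spata21 at -0.61 (0.52) and -1.16 (0.037), and Nop9 at -0.83 (0.25) and -1.21 (0.026). Between the 2 doses themselves these genes differed by 0.41 ± 0.21, 0.55 ± 0.25 and 0.38 ± 0.24 (SE), and none passed, so a difference in response was not shown. Ldhc was at 0.24 for 10 µg/ml (0.63) and rose by 0.58 for 1 µg/ml (0.013). With the set as a term Polb was at 0.07 ± 0.22 for 10 µg/ml and -0.45 ± 0.21 for 1 µg/ml (SE), Mea1 at -0.23 ± 0.34 and -0.52 ± 0.33, Spata21 at -0.39 ± 0.39 and -0.83 ± 0.38, Nop9 at 0.33 ± 0.27 and -0.00 ± 0.26, and Ldhc at 0.18 ± 0.16 and 0.52 ± 0.16.

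Some genes passed against control at both doses, though not with the set as a term. Ubb-ps, a ubiquitin pseudogene whose probe may read other ubiquitin genes, read 14.17, 14.23 and 14.45 at 10 µg/ml and 14.29, 14.33 and 14.45 at 1 µg/ml, and was above control by 0.56 and 0.63 (limma adjusted p 0.048 and 0.012). A second Ubb-ps probe differed between the doses by -0.38 ± 0.11 (SE), and lay above control by 0.24 at 10 µg/ml and 0.62 at 1 µg/ml. Mrps21 was below control by 0.44 and 0.53 on the log2 scale, Tex43 above it by 0.40 and 0.36, with limma's adjusted p under 0.05 at both doses. Their differences between 10 and 1 µg/ml had 95% intervals of -0.30 to 0.16 for the first Ubb-ps probe, -0.10 to 0.27 for Mrps21 and -0.13 to 0.20 for Tex43. Akip1 passed against control at 10 µg/ml (0.51) and not at 1 µg/ml (0.17). With the set as a term Akip1 was at 0.82 ± 0.16 for 10 µg/ml and 0.53 ± 0.15 for 1 µg/ml (SE), and neither passed. Its readings were 8.61, 8.58 and 8.72 at 10 µg/ml and 8.42, 8.27 and 8.21 at 1 µg/ml, a difference of 0.33 ± 0.10 (SE) that did not pass.

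**Figure D4:**
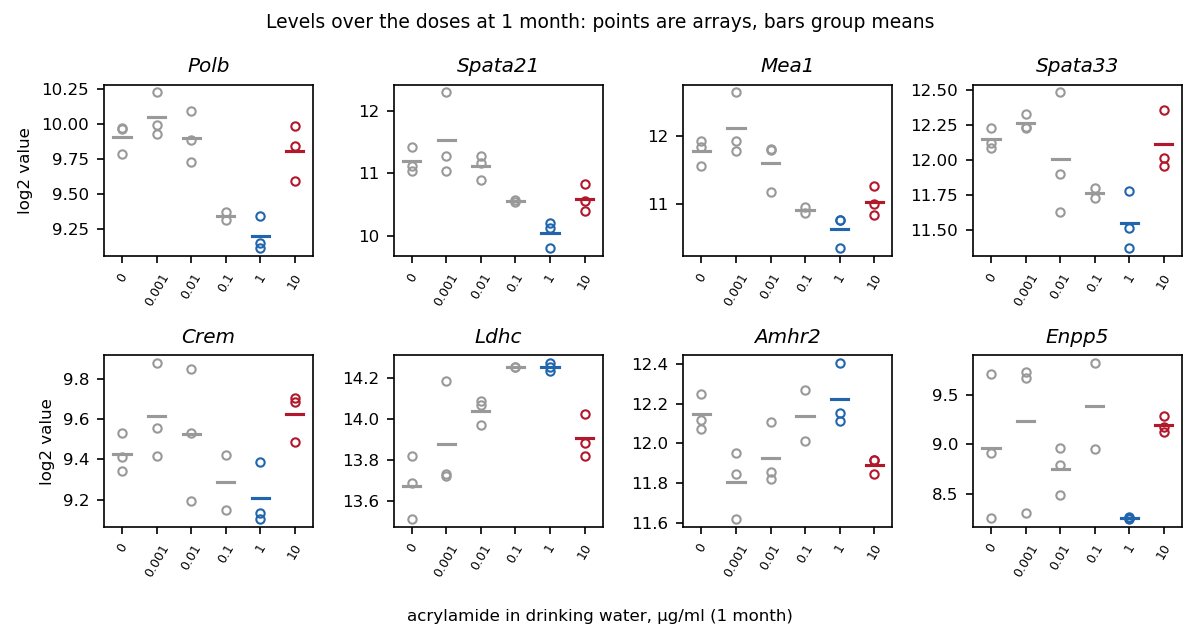
Log2 value of each array (open circles) and group mean (bars) over the acrylamide doses at 1 month, in µg/ml with 0 for control, for 8 genes; 1 µg/ml is blue and 10 µg/ml red. Polb and Spata33 are low at 0.1 and 1 µg/ml and near the control level at 10 µg/ml, and Enpp5 varies as widely among control arrays as between the 2 doses. The arrays at 0.1 and 1 µg/ml lie in another set of sample numbers than the controls, together with 1 array at 0.01 and 2 at 10 µg/ml.

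At 6 months the contrast of the same doses ran the other way for many of these genes. The test there gave 0 calls with limma among 15419 probes, 1565 at an unadjusted p under 0.05 (10.1%), 173 calls from the 6 arrays alone and 331 with array weights. At that time 1 µg/ml lies in set 4 and 10 µg/ml in set 5, and these sets share no group, so that dose and set cannot be told apart. The animals were also older, at 11 to 12 months against 3 to 6 months. The 2 contrasts share no array, and across probes they correlated at r = -0.600 (Spearman rho -0.519, 15419 probes, which share the normalization and are not independent). Of all probes 65.9% had opposite signs at the 2 times, as did 9 of the 12 higher and 11 of the 12 lower genes named above. The list medians at 6 months were 0.12 for Sertoli, 0.11 for Leydig, -0.13 for round spermatid and -0.094 for elongating spermatid genes.

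The difference between the 2 contrasts passed for 15 probes with limma (0.0973%), 5 higher (0.0324%) and 10 lower (0.0649%) at 1 month. Polb read 8.78, 8.91 and 8.74 at 10 µg/ml and 9.46, 9.20 and 9.05 at 1 µg/ml after 6 months, so the order of the doses was reversed and the contrasts differed by 1.03 ± 0.22 (SE, limma adjusted p = 0.0498). Spata33 read 10.75, 10.97 and 10.63 at 10 µg/ml and 11.63, 11.60 and 11.40 at 1 µg/ml, and its contrasts differed by 1.32 ± 0.24 (adjusted p = 0.0424 in limma). Sema4b, a semaphorin, read 9.70, 9.69 and 9.76 at 10 µg/ml and 9.39, 9.34 and 9.20 at 1 µg/ml, and its contrasts differed by -0.69 ± 0.12 (0.0278). The 15 calls went to 0 without replicate 2 of 10 µg/ml or of 1 µg/ml at 1 month, and without replicate 3 of 10 µg/ml or replicate 2 or 3 of 1 µg/ml at 6 months. Leaving out 1 of the other 7 arrays of these doses gave 1 to 24 calls, and leaving out the array that stood apart gave 631. At 12 months, with 1 array a dose and no replicate check, Polb read 8.87 at 10 µg/ml and 8.89 at 1 µg/ml, Spata33 read 11.00 at 10 µg/ml and 11.04 at 1 µg/ml, and Sema4b 9.27 at 10 µg/ml and 9.58 at 1 µg/ml.

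**Figure D5:**
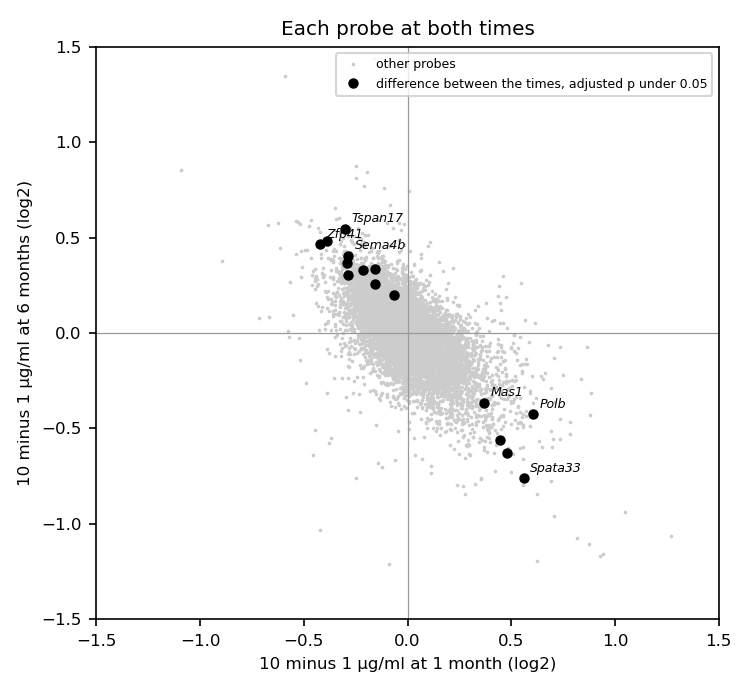
Difference of 10 minus 1 µg/ml (log2) at 6 months against that at 1 month, 1 point a probe, 15419 probes; black points are the 15 probes whose difference between the times passed, with 6 named. The cloud leans from upper left to lower right. The black points were chosen by the difference between the times, which favours opposite signs.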

How the data were processed

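RNA of mouse testes was measured on 46 Illumina bead arrays, in 18 groups of dose and time. The authors deposited normalized log2 values, made with lumi per the submitters' processing notes (version and settings not given in the sources used here), and non-normalized intensities. The deposited intensities were used for 1 alternative and for array brightness: 12 of their 45 columns used follow the probe names and 33 stand in another order, which was restored by matching ranks (25684 probes matched within 0.001, 13 not), and 1 column was not used. Symbols came from the platform annotation (23978 of 25697 probes have 1 and 1719 none) and chromosomes were not needed.

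Probes were ordered by their mean level, the lowest 40% were dropped, and the 15419 kept were fitted with limma (version 3.58.1, R 4.3.3), with a mean per group and the spread pooled over all arrays. P-values were adjusted by Benjamini-Hochberg over all probes tested, threshold 0.05. A gene in a list is read by its brightest probe. The genes named are the 12 higher and 12 lower with the smallest p that have a symbol (unnamed transcripts skipped), up to 4 per list with the smallest p, and genes of the comparisons with control. The lists and groups, and the members, were chosen with earlier results of these data known. With 3 against 3 arrays an exact permutation test cannot go below 0.10, so none is given. The alternatives were other filters, normalizations, priors, array weights, sets of 8 sample numbers as a term, a replicate block and leaving out arrays. The fit was tried on simulated data with independent normal noise. These held no set effect and no array that stood apart, so the trial does not cover such features of the arrays.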

Additional observations from a re-analysis of the deposited data

Results flagged for a closer look

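The contrast of 10 against 1 µg/ml differed between 1 month and 6 months, by its own test with limma (adjusted p under 0.05), for 15 probes. As the 1 month difference minus the 6 month difference on the log2 scale, it was above 0 for Spata33 (1.32), a probe with no symbol (ILMN_2862353, 1.11), Polb (1.03), 1700016D06Rik (1.01) and Mas1 (0.73). It was below 0 for Zfp41 (-0.89), a second probe with no symbol (ILMN_2675000, -0.87), Tspan17 (-0.85), Sema4b (-0.69), Snx17 (-0.66), Ssr2 (-0.59), Wdr45b (-0.55), Gab1 (-0.49), Rapgef3 (-0.41) and Eif4e3 (-0.27). At 6 months each dose lies in a set of sample numbers of its own, so that dose and set cannot be told apart.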

How the results depend on the processing

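For 10 against 1 µg/ml at 1 month, 0 calls were made in every fit run, with these exceptions. Array weights gave 32 and the 6 arrays alone gave 1 (Enpp5). The set as a fixed term without the array that stood apart gave 30 (added after seeing the data). That last fit shared 14 probes with array weights. Its difference is the one within set 2, without replicate 3 of 10 µg/ml. Leaving out 1 array of the 2 doses gave 0 calls each time, with 565 to 908 probes at an unadjusted p under 0.05, and leaving out the array that stood apart gave 0 calls and 1645 such probes. At 6 months the calls were 130 without the array that stood apart, 21 with no filter, 8 with a trend in the prior, 331 with array weights, 173 from the 6 arrays alone, 1 with the replicate block and 0 to 4 with 1 array left out. The difference between the times had 15 calls, and 631, 8, 0, 1415, 1034 and 864 under the same alternatives in that order, 2 from log2 intensities and 0 to 24 with 1 array left out. The replicate block gave 0 calls at 1 month. Against control at 1 month, the set as a fixed term (added after seeing the data) gave 0 calls at either dose, against 11 at 10 µg/ml and 46 at 1 µg/ml without it. In that fit the set of the controls is linked to set 2 through 0.01 µg/ml alone, with 1 array in set 2. Same-numbered arrays of the 2 doses deviated together only weakly (correlations 0.095, 0.069 and 0.062 at 1 month, -0.043, -0.016 and 0.016 at 6 months), so the numbers were not taken as pairs; at 1 month each array correlated best with its own number. Among single genes, Tex43 had -0.0327 without 10 µg/ml replicate 1 and -0.0288 without 1 µg/ml replicate 3, and Spink8 0.0293 without 1 µg/ml replicate 2, opposite in sign to their full values (with 1 array left out Tex43 ranged from -0.0327 to 0.0789 and Spink8 from -0.129 to 0.0293); over 24 alternatives and 147 named values, 3 changed sign, 188 lost a call and 15 gained one. The causes were not tested. The set could not be fitted as a fixed term for the 6 month contrast or for the difference between the times, because sets 1 to 4 and 5 to 6 share no group. Bead intensity close to background limits what dim probes can show, and 3 arrays a dose limit the precision.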
